A study of Mus musculus with 6 samples.

Results

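The Ifi200 (p200, or PYHIN) genes form a tandem cluster of DNA-binding, interferon-inducible genes on mouse chromosome 1. The 9 listed members were Aim2, Ifi206, Ifi207, Ifi204, Ifi203, Ifi205, Mndal, Mnda and Pyhin1, out of 21887 protein-coding genes in the gene table. All 9 were found by symbol or synonym; Mnda is the synonym of Ifi211 and Pyhin1 that of Ifi209, and the current symbols are used here. A peak belonged to a member when it overlapped the gene's span plus 2 kb on either side, and peaks between the members were read as well. The cluster was proposed after these same data had shown a peak at Ifi206 that went with succinate, so its members were chosen by gene family, with the cluster itself selected on the covered length and peak presence at Ifi206. The succinate contrasts of the members therefore describe what was already partly seen.

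CUT&Tag was measured in 6 libraries of group 2 innate lymphoid cells (ILC2s) sorted from mouse colon. CUT&Tag uses an antibody to bring a transposase to chromatin, so that DNA near the antibody's target is cut out for sequencing. No source used here names that target, and a peak therefore stands for enrichment of something unnamed. All cells had been grown with IL-33 and IL-25, the alarmins that activate ILC2s, and with IL-7 and IL-2, which support their survival; the cultured cells were sorted before the assay. Control cells had no further agent in the labels. FK866 cells received FK866, an inhibitor of NAMPT, the enzyme that salvages nicotinamide into NAD. FK866 plus succinate cells received the same inhibitor together with succinate, a metabolite of the tricarboxylic acid cycle. Each of the 3 groups had 2 libraries, numbered by their labels. The labels give no strain, age, dose or time, nor whether replicates came from different animals or cultures. The p values here thus speak only of the spread between these libraries, which may be technical.

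PYHIN proteins carry HIN domains, which bind DNA, and most also carry a pyrin domain, which binds other pyrin domains. AIM2 is the best known: on meeting double-stranded DNA in the cytosol it recruits the adaptor ASC, encoded by Pycard, and activates caspase-1. Type I interferon induces most family genes, and many genes that respond to it carry interferon-stimulated response elements in their promoters.

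The promoters of 7 cluster genes are shown because they let the peaks at gene starts be read against the sequence: the 5 members that had any peak, and the copies most like Ifi206 and Ifi209, which are Ifi208 and Ifi214. Each is the RefSeq sequence of GRCm38.p6 from 250 bases before to 50 bases after a transcript start, 5′ to 3′ along the gene. GRCm38.p6 shares the chromosome coordinates of mm10, the build of the peak lists. Capitals mark a match to the core of the interferon-stimulated response element, which is GAAA, any 2 bases and GAAA again, searched on both strands. The windows are chr1:173491269-173491568 on the minus strand for Ifi206, chr1:173673415-173673714 on the plus strand for Ifi208 and chr1:173630609-173630908 on the plus strand for Ifi209. They are chr1:173535908-173536207 on the minus strand for Ifi214, chr1:173942443-173942742 on the minus strand for Ifi203, chr1:173880138-173880437 on the minus strand for Mndal (the upstream one of its annotated starts) and chr1:173420354-173420653 on the plus strand for Aim2.
Ifi206: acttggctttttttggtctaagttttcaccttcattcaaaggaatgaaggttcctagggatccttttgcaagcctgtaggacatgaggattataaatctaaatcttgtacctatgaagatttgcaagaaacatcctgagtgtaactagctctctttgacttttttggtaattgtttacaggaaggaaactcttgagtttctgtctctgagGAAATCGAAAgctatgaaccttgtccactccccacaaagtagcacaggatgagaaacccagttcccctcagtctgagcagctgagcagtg
Ifi208: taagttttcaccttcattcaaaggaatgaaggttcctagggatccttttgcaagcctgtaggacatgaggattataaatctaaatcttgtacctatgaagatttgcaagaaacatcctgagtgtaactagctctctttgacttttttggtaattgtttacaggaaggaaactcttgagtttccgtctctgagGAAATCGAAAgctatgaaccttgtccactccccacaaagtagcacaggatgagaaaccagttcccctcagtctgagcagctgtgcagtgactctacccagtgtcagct
Ifi209: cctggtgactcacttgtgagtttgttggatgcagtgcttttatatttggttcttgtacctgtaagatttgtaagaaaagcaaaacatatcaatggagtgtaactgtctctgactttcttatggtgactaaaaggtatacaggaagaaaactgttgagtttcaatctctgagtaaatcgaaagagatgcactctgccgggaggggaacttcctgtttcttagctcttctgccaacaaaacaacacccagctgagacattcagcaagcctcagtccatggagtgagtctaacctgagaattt
Ifi214: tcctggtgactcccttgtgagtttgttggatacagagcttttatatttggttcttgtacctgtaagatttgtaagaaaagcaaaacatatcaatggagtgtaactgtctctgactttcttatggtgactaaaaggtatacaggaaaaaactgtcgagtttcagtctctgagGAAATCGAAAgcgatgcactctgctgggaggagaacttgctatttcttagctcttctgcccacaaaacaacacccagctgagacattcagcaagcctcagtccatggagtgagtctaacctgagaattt
Ifi203: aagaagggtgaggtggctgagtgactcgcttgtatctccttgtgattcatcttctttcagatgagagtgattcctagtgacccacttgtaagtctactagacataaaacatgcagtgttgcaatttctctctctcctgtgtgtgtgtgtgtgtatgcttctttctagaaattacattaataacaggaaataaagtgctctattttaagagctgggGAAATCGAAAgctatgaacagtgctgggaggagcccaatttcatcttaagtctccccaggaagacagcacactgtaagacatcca
Mndal: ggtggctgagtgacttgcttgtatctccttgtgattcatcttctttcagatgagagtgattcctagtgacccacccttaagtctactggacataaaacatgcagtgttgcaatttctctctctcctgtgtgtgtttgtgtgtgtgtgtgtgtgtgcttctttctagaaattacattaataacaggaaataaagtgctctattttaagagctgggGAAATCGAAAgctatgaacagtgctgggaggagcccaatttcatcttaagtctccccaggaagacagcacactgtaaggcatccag
Aim2: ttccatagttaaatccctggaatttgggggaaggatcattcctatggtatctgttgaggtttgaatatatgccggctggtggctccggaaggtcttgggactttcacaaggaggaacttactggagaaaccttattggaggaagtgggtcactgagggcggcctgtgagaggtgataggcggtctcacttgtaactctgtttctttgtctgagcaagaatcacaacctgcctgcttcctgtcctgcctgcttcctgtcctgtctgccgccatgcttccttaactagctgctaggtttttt

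The element stood in at least 1 promoter window of 6 of the 8 members that matched the promoter table. These are Ifi206, Ifi207, Mndal, Ifi211, Ifi203 and Ifi205. Of 32851 promoter windows of the same length in the mouse table, 3.44% held it, a share per window and not per gene. In Ifi206 the match GAAATCGAAA began 40 bases before the start, in Ifi207 41 bases, in Mndal 36 bases and in Ifi203 35 bases. Ifi211 and Ifi205 carried GAAATTGAAA, and Ifi205 held a further match on the reverse strand, TTTCACTTTC, inside the transcript. The window at the other annotated start of Mndal held TTTCTCTTTC, also a match on the reverse strand. Ifi203 too has another annotated start, upstream of the one shown, and the window there held no match. Of the family genes that are no members, Ifi208, Ifi213 and Ifi214 each held GAAATCGAAA and Ifi202b held no match. The windows of Aim2 and Ifi209 held no match. At the place where Ifi214 has GAAATCGAAA, Ifi209 has TAAATCGAAA, the change G1T counted from 1 at the 5′ end of the element with the base of Ifi214 first. The gamma-activated site TTCNNNGAA, also searched on both strands, was in the windows of 0 of the 8 members and in 8.30% of all windows. A match is a string of letters and not a measured binding site.

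The promoter copies were close to each other in pairs rather than alike throughout the family. Over the 66 pairs among 12 cluster genes, the share of identical bases in a global alignment had a median of 57.0% and ran from 49.7% to 95.7%. Ifi209 and Ifi214 were 95.7% identical, with 109 bases in their longest shared run. Mndal and Ifi203, which lie next but one to each other, were 94.0% identical. Ifi206 and Ifi208 were 93.0% identical, with a shared run of 182 bases, and Ifi206 and Ifi213 87.7%, with a run of 135 bases. Ifi207 and Ifi211, neither of which had a peak, were 87.0% identical. Short reads from such runs can align to more than 1 copy, and no source used here says how they were treated, so the part of this in the peaks of the paired copies was not tested.

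**Figure D1:**
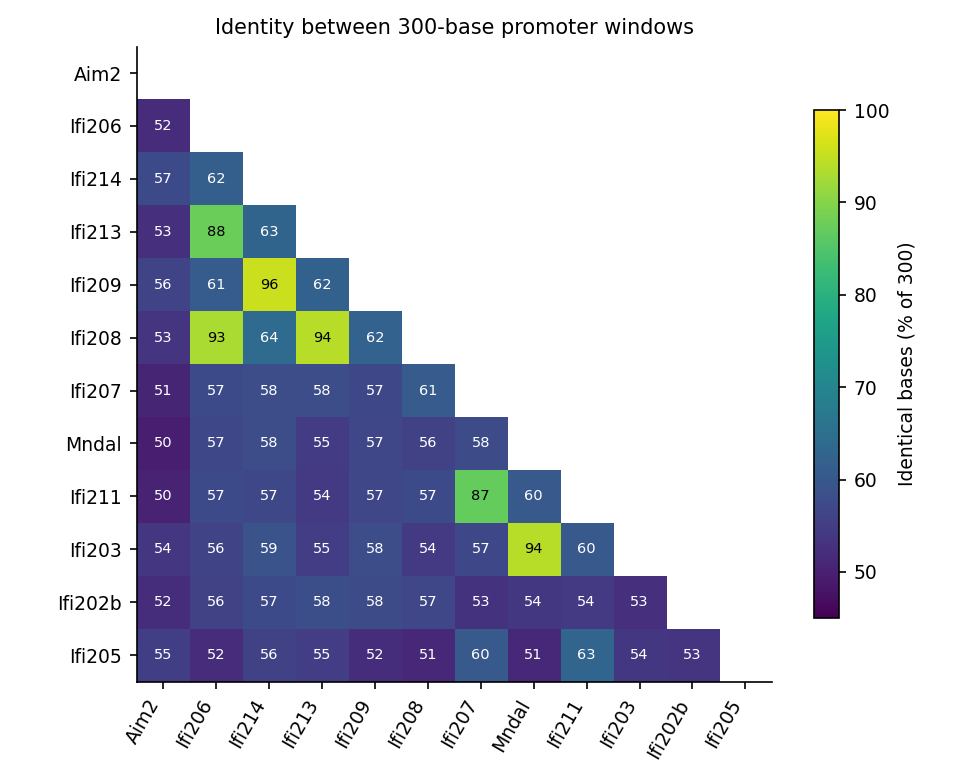
Share of identical bases (percent of 300) between the promoter windows of 12 cluster genes, in chromosome order; each cell is 1 pair of genes, with the best pair of entries where a gene has several. The pairs Ifi209 with Ifi214, Mndal with Ifi203, Ifi213 with Ifi208 and Ifi206 with Ifi208 stand at 93.0% or above, while the median of all pairs is 57.0%.

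The libraries held between 40320 and 56361 peaks on the 21 chromosomes used. Depth as read counts was not used here; a background inferred from the steps of the fold values was 1.85 and 2.14 fragments per position in Control, 2.11 and 1.60 in FK866, and 1.74 and 1.25 in FK866 plus succinate. The lists reach down to a p just under 0.05, which at these backgrounds takes at least 4, 5, 5, 4, 4 and 3 fragments at a position in the same order. All 9 ILC2 marker genes, among them Gata3, Il1rl1 and Il13, had peaks in all 6 libraries, as did 64.1% of all protein-coding genes. The median percentile of their strongest peak was 79.1. Of the markers found, 2 of 4 for T cells, 3 of 4 for B cells, 2 of 4 for ILC1 and NK cells and 1 of 3 for ILC3 had peaks in all 6. The medians of these lists were 39.6, 52.9, 32.0 and 2.41, but single genes in them ranked as high as the ILC2 markers, such as Cd79a, between 80.7 and 89.7. A percentile here is the rank of a peak's −log10 p within its own list, from 0 for no peak to 100. The strongest peaks of genes moved up in this rank with succinate over the whole genome, and 40.3% of tested genes ranked higher in both succinate libraries than in both FK866 libraries, so percentiles are given beside covered lengths and not alone.

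Most peaks of the cluster lay near gene starts. From 2 kb before Aim2 to 2 kb after Ifi205, chr1:173347547-174033755, it ran over 686 kb, and the 13 protein-coding genes wholly inside it were all of the Ifi200 family. The lists had 45 peaks there, 10 and 6 in the Control libraries, 5 and 5 in FK866, and 9 and 10 in FK866 plus succinate. Of the 45 summits, 38 lay between -1654 and 2430 bp from a transcript start of the cluster gene they overlapped, counted along the gene. The other 7, all in the span of Aim2, lay over 10 kb from the Aim2 start. Distances to the starts of genes outside the family, such as Cadm3, were not measured. None of the 45 lay between the genes and their flanks, and 1 lay at a gene that is no member, Ifi213, in the second succinate library. Of the 45 peaks, 33 had an adjusted p under 0.05 in the authors' lists. On the right, the first peak beyond the cluster lay between 6992 and 7229 bp away from that edge in the 6 libraries. On the left the nearest peak lay between 685798 and 714286 bp away. Ackr1, the nearest gene on that side that ends before Aim2, had no peak. Cadm3 overlaps Aim2 but is not wholly inside the cluster, and its peaks are given with those of Aim2.

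**Figure D2:**
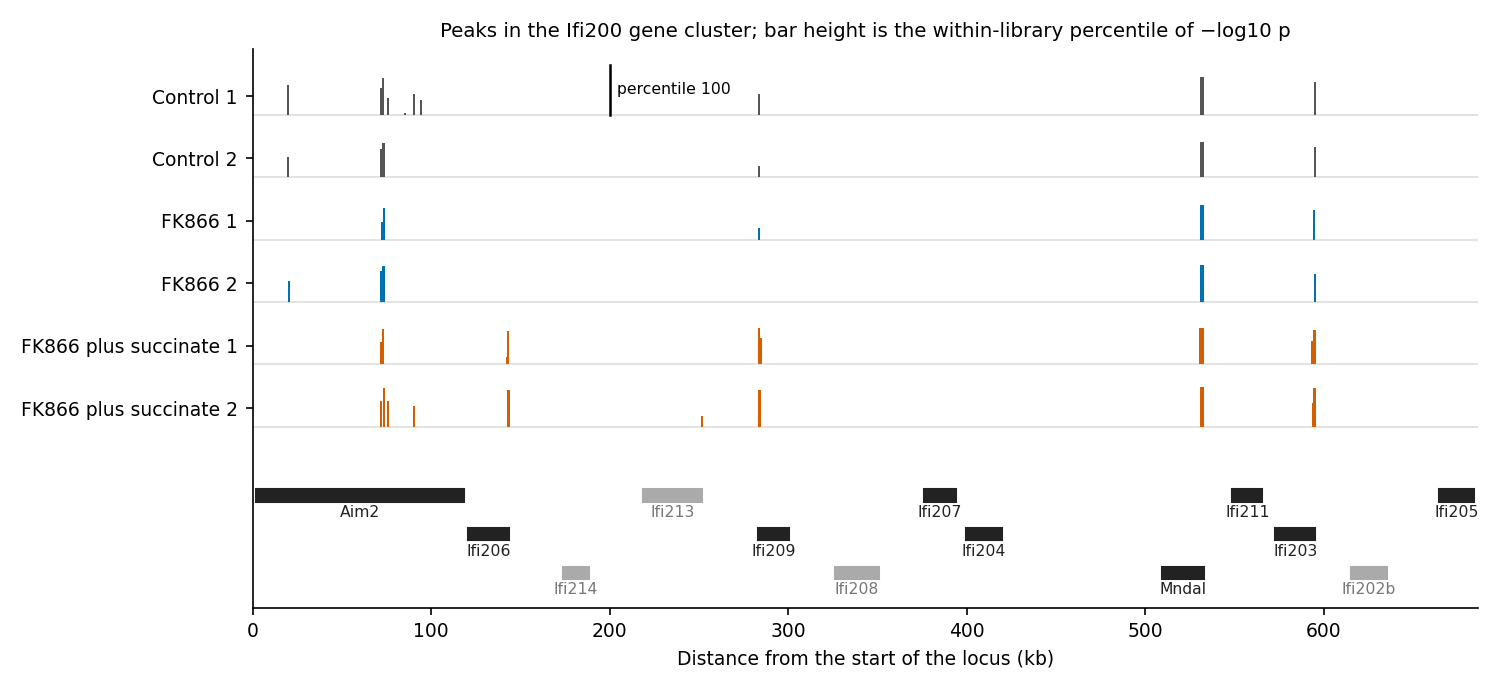
Peaks of the 6 libraries along the Ifi200 cluster, by distance from its left edge in kb; bar height is the percentile of −log10 p within the library (scale bar, 100), narrow peaks are drawn wider than they are so that they show, dark boxes are members and grey boxes other family genes. Peaks at Mndal, Ifi203 and the start of Aim2 stand in all 6 libraries, those at Ifi206 in both FK866 plus succinate libraries alone of the 6, and Ifi207, Ifi204, Ifi211 and Ifi205 have none.

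Peaks covered 1.12% and 0.872% of the cluster in Control, 0.837% and 0.795% in FK866, and 1.43% and 1.36% in FK866 plus succinate. Both succinate libraries lay above the other 4, and both FK866 libraries lay below both Control libraries. The totals include the peaks at Ifi206, on which the cluster was selected. These made up 1403 of 9784 bp and 1259 of 9310 bp in the succinate libraries and 0 bp in the other 4. The succinate differences below are therefore partly the selected one. The group means were 0.996% ± 0.175, 0.816% ± 0.0295 and 1.39% ± 0.0488 (SD, n = 2 each). FK866 plus succinate minus FK866 was 0.575 percentage points and FK866 plus succinate minus Control 0.396, each with an exact two-sided permutation p of 0.333, the smallest that 2 libraries against 2 can give. FK866 minus Control was -0.18 with the same exact permutation p of 0.333. It shrank to -0.0196 when peaks with an adjusted p of 0.05 or more were left out, and to -0.0557 without Control replicate 1, which with FK866 plus succinate replicate 2 had the most peaks in the cluster, and was -0.304 without Control replicate 2.

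Presence split the members into those marked in every library, in some and in none. Of the 9 members, 3 had a peak in every library (Aim2, Mndal and Ifi203), and 4 had none in any (Ifi207, Ifi204, Ifi211 and Ifi205). Over all protein-coding genes, 64.1% had a peak in every library and 27.2% in none. Ifi204, whose product takes part in STING-dependent sensing of viral DNA, and Ifi205, which in macrophages regulates expression of the adaptor gene Pycard, were thus covered at 0 bp in all 6 libraries. Ifi207 and Ifi211, whose promoter windows like that of Ifi205 hold the response element, likewise showed 0 bp throughout. The part of reads that align to several copies in such absences was not tested. The remaining members were Ifi209, with peaks in 5 libraries, and Ifi206, with peaks in 2.

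Ifi206, an interferon-inducible family gene on the minus strand at chr1:173468485-173491318, had its peaks in the FK866 plus succinate libraries and in none of the other 4. Its span plus 2 kb was covered at 0 bp by peaks in the 4 libraries of Control and FK866, and at 1403 and 1259 bp in the succinate libraries. The stronger peak of each library was chr1:173490258-173491332 in the first and chr1:173490269-173491527 in the second. Both peaks overlapped the printed promoter window and ran into the gene, with summits 177 and 432 bp downstream of the start. They took up 64 and 259 of the 300 bases of the window. The inferred number of fragments at the summit was 16 and 13, against backgrounds of 1.74 and 1.25 fragments per position, and the percentiles were 67.1 and 74.3. The first library also had a weak peak, chr1:173489396-173489723, with 5 fragments at its summit and a summit 1864 bp into the gene. This difference is what drew attention to the cluster, so its values are a description.

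Ifi209, the gene listed as Pyhin1, was marked in 5 libraries and covered over the greatest length in both succinate libraries. Its covered length was 274 and 547 bp in Control, 453 and 0 bp in FK866, and 1504 and 1554 bp in FK866 plus succinate. Both succinate libraries thus lay far above the other 4, and the ranges of Control and FK866 overlapped. At the strongest summit the inferred fragments numbered 7 and 7 in Control, 7 in the only FK866 library with a peak, and 30 and 13 with succinate. Per unit of library background these were 3.78 and 3.27, 3.32, and 17.2 and 10.4. None of the 3 peaks outside the succinate group had an adjusted p under 0.05; their −log10 adjusted p was 1.11, 0.735 and 0.775, against 22.0 and 7.39 for the strongest succinate peaks. The percentile of the strongest peak was 42.2 and 23.2, 22.6 and 0, and 73.6 and 73.9 in the 3 groups. In covered percent of the span plus 2 kb, Ifi209 was 6.18 ± 0.869 (SE) percentage points higher with succinate than with FK866 alone and 5.31 higher than Control. Neither difference passed limma's test over all genes (adjusted p = 0.26 and 0.282). Counting only peaks with an adjusted p under 0.05 gave limma adjusted p values of 0.00429 and 0.00226. Over the settings that kept all 6 libraries they ran from 0.00184 to 0.476 and from 0.00184 to 0.474. That count and the higher-scoring 50% of each list both left Ifi209 at 0 in all of the other 4 libraries, which then carry no spread. It passed the filter there through its succinate libraries alone, so these low values support nothing beyond the covered lengths above. Ifi214, whose promoter is 95.7% identical to that of Ifi209, had no peak in any library.

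Ifi203, another interferon-inducible member, had a peak over its start in every library and a further peak inside the gene with succinate. Peaks covered 778 and 861 bp in Control, 1081 and 1029 bp in FK866, and 2379 and 1563 bp in FK866 plus succinate. The 3 groups did not overlap, and the spread between the succinate libraries was the widest, at 1971 ± 577 bp (SD, n = 2). The peak at the start had 13 and 17 inferred fragments at its summit in Control, 16 and 10 in FK866, and 21 in both succinate libraries, or 7.03 and 7.94, 7.58 and 6.25, and 12.1 and 16.8 per unit of library background. Its summit lay between -11 and 444 bp from the downstream annotated start, counted along the gene. The further peak, inside chr1:173940441-173941300, had its summits 1292 and 1496 bp into the gene, with 9 and 7 fragments and a −log10 adjusted p of 1.58 and 0.663. In covered percent, limma gave 3.46 ± 1.1 (SE) percentage points more with succinate than with FK866 (adjusted p = 0.508) and 4.35 more than Control (adjusted p = 0.414), neither past the threshold. Without FK866 plus succinate replicate 1 these were 1.92 and 2.81, and with the higher-scoring 50% of each list 0.994 and 1.88.

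Mndal, a nuclear member that resembles the myeloid nuclear differentiation antigen, had the widest single peak of the cluster in all 6 libraries. Its covered length was 2519 and 2401 bp in Control, 2649 and 2517 bp in FK866, and 2743 and 2576 bp in FK866 plus succinate. The succinate and FK866 ranges overlapped, as did those of FK866 and Control, and both succinate libraries lay above both Control libraries. The summit held 49 and 57 inferred fragments in Control, 51 and 56 in FK866, and 59 and 44 with succinate. These counts overlapped between groups, but per unit of library background they were 26.5 and 26.6, 24.2 and 35.0, and 33.9 and 35.2, with succinate replicate 1 below FK866 replicate 2 and both succinate libraries above both Control libraries. It lay within 50 bp of the upstream annotated start in the Control and FK866 libraries, and 351 and 182 bp past the downstream one in the succinate libraries. The limma difference was 0.282 ± 0.78 (SE) percentage points for succinate against FK866 (adjusted p = 0.941) and 0.734 against Control (adjusted p = 0.842). The promoters of Mndal and Ifi203 are 94.0% identical, yet the covered length of Ifi203 was lower than that of Mndal in every library.

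Aim2, the cytosolic DNA sensor of the inflammasome, was marked at its start in every library. Its start peak had 29 and 32 inferred fragments at the summit in Control, 27 and 35 in FK866, and 28 and 26 with succinate, and these counts overlapped between groups. Per unit of library background they were 15.7 and 15.0, 12.8 and 21.9, and 16.1 and 20.8, with FK866 taking in both other groups and both succinate libraries above both Control libraries. The summits lay between 6 and 111 bp downstream of the start. A second peak upstream, inside chr1:173418749-173419840, was likewise in all 6 libraries. Over the whole span plus 2 kb, the covered length was 4112 and 2172 bp in Control, 1559 and 1910 bp in FK866, and 1755 and 1963 bp in FK866 plus succinate. Control lay above both other groups, and Control replicate 1 alone had peaks at 7 places. Part of this came from a region about 53 kb before the Aim2 start, chr1:173367036-173367605. It also lies in the span plus 2 kb of Cadm3, an adhesion gene that overlaps the annotated span of Aim2. Where this region lies relative to the start of Cadm3 was not examined. That region had 570 and 468 bp in Control, 0 and 304 bp in FK866, and none with succinate. Within 2 kb of the Aim2 start the covered length was 1713 and 1704 bp in Control, 1559 and 1606 bp in FK866, and 1755 and 1101 bp with succinate, and the succinate range took in those of both other groups. limma's differences for Aim2 did not pass in any comparison; that of FK866 against Control was -1.17 ± 0.56 (SE) percentage points (adjusted p = 1), and it was -0.363 without Control replicate 1 and -1.97 without Control replicate 2.

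**Figure D3:**
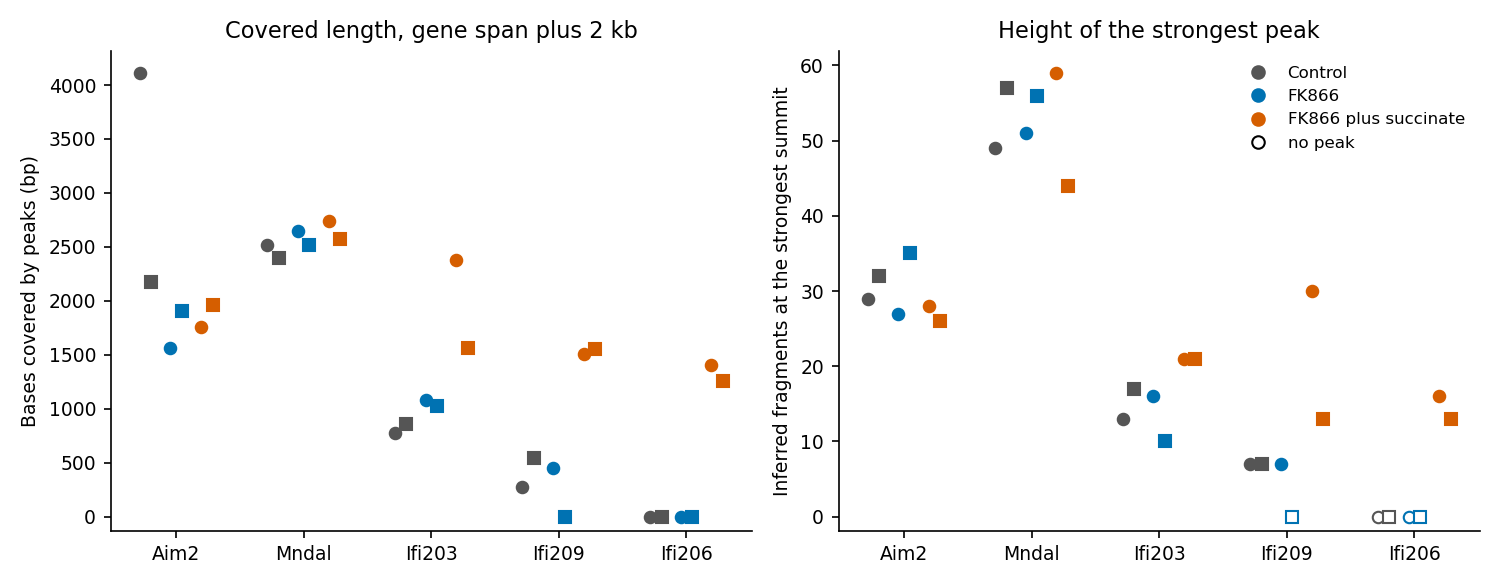
Left, bases covered by peaks in the span plus 2 kb; right, inferred fragments at the strongest summit; for the 5 members with a peak, circles are replicate 1 and squares replicate 2, and open symbols mark no peak. Ifi206, Ifi209 and Ifi203 are wider in both FK866 plus succinate libraries (orange) than in the other 4, while at Mndal FK866 overlaps both other groups and Aim2 is widest in Control replicate 1.

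Set side by side, 3 of the 5 members that passed the filter on low values were wider in both succinate libraries than in all of the other 4: Ifi206, Ifi209 and Ifi203. Over the 15362 genes tested, 7.52% were. For the percentile of the strongest peak the same 3 members ranked above the other 4 libraries, against 15.0% of genes. Nothing is read from these counts, since a member at or near 0 elsewhere passed the filter through its succinate libraries, and the cluster was proposed with that contrast known. With succinate set against FK866 alone, 3 members were wider without overlap and 0 narrower, beside 17.9% and 21.8% of genes; against Control, 4 were wider and 1 (Aim2) narrower, beside 13.4% and 24.5%. With FK866 against Control, 1 was wider (Ifi203) and 1 narrower (Aim2), beside 12.8% and 19.9%.

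limma, fitted over all 15362 genes, called 0 of 5 members in FK866 against Control at an adjusted p under 0.05, where 0.0716% of genes were called. At an unadjusted p under 0.05 it gave 0 members and 4.85% of genes. For succinate against FK866 it called 1 of 5, Ifi206, beside 0.0716% of genes, and for succinate against Control again Ifi206 alone, beside 0.156%. At an unadjusted p under 0.05 there were 3 members in either succinate comparison, beside 8.64% and 9.28% of genes. The call of Ifi206 rests on 4 libraries at exactly 0, which carry no spread of their own, and it supports nothing beyond the values above. When any library was left out, limma called 0 members and also 0 genes over the whole genome, in every comparison. The Ifi206 difference was 4.96 percentage points in either succinate comparison in the reported fit, and 4.96 again without each Control or FK866 library. As those libraries all stood at 0, leaving 1 of them out could not change it. Without a succinate library Ifi206 no longer passed the filter and was not tested.

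The merged peaks of the 6 libraries made 14 regions in the cluster, of which 4 had a peak in every library and 4 in a single library. A region is called gained here when both libraries of one group had a peak in it and neither of the other did. FK866 against Control gained 0 and lost 0 of the 14, beside 1.40% and 2.04% of 101435 regions in the genome. Succinate against FK866 gained 2 and lost 0, beside 2.76% and 1.68%. Succinate against Control gained the same 2 regions, at the start of Ifi206 and inside Ifi203, and lost 1, that shared by Aim2 and Cadm3, beside 2.44% and 2.06%. In the genome, 1.44% of regions had peaks in both succinate libraries and in none of the other 4, as these 2 did. Counted by gene, Ifi206 was the 1 of the 5 members with a peak in any library that gained peaks with succinate against FK866 and against Control, beside 0.903% and 0.458% of 15942 such genes, and 0.270% against both together. Without Control replicate 2 the regions that differed between FK866 and Control numbered 4 and not 0, and without either FK866 library 1. Without FK866 plus succinate replicate 1, those between succinate and FK866 numbered 5 and not 2. Leaving out FK866 replicate 1 or FK866 plus succinate replicate 2 gave 4 in that comparison, and leaving out Control replicate 2 or FK866 plus succinate replicate 2 gave 5, not 3, between succinate and Control.

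**Figure D4:**
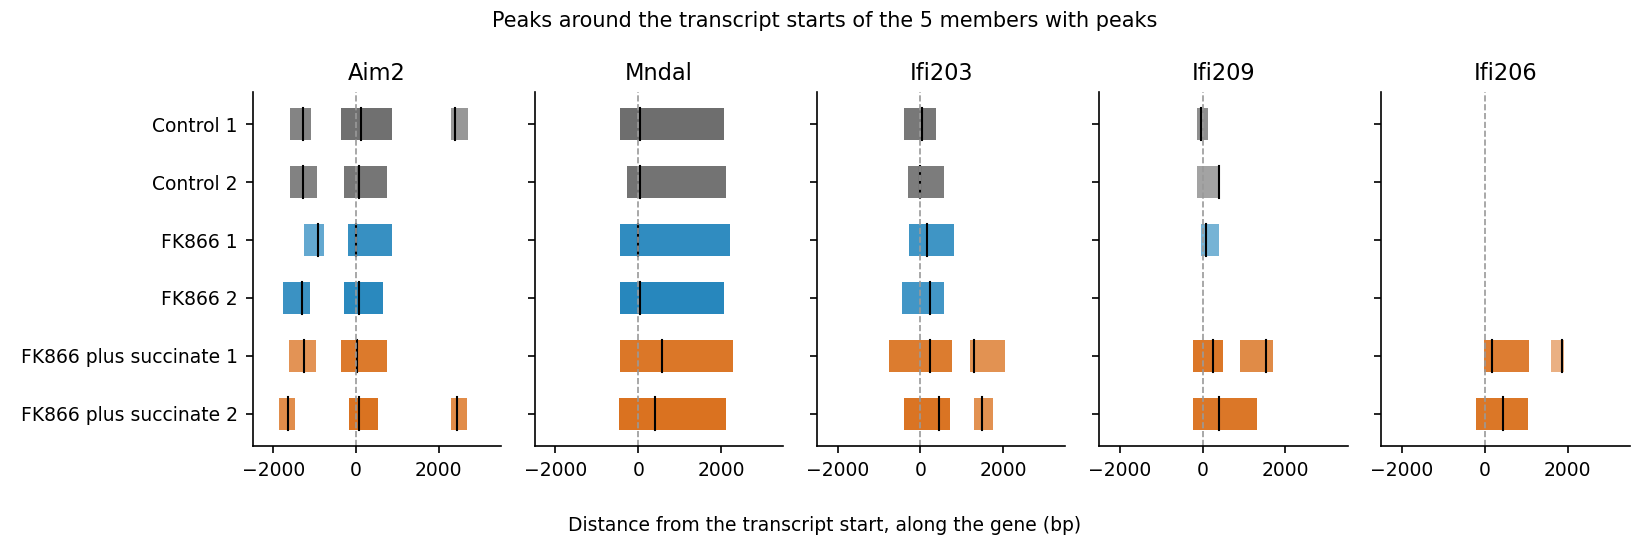
Peaks of the 5 members with any peak, by distance in bp from the transcript start along the gene (dashed line; for Mndal, the upstream one of its annotated starts); shading deepens with the percentile of −log10 p and black ticks mark summits. Mndal and Aim2 have a peak over the start in all 6 libraries, Aim2 has a further peak downstream in Control 1 and FK866 plus succinate 2, and with succinate Ifi203 and Ifi209 reach further into the gene and Ifi206 has its peaks.

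The patterns closest to that of Ifi206 over the 6 libraries, by the mean absolute difference in the percentile of the strongest peak, were those of Trim6, Phf11a, Calhm1, Tgtp1 and Adh1. The mean difference was 4.70 percentile points for Trim6 and 7.18 for Adh1. Trim6, a ubiquitin ligase gene, stood at 58.1 and 55.2 in the succinate libraries and had no peak in the other 4. Tgtp1, an interferon-inducible GTPase gene, stood at 41.8 and 66.3 with succinate, at 3.56 in FK866 replicate 2, and had no peak elsewhere. Adh1, an alcohol dehydrogenase gene, differed from Ifi206 in having a weak peak in Control replicate 1.

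**Figure D5:**
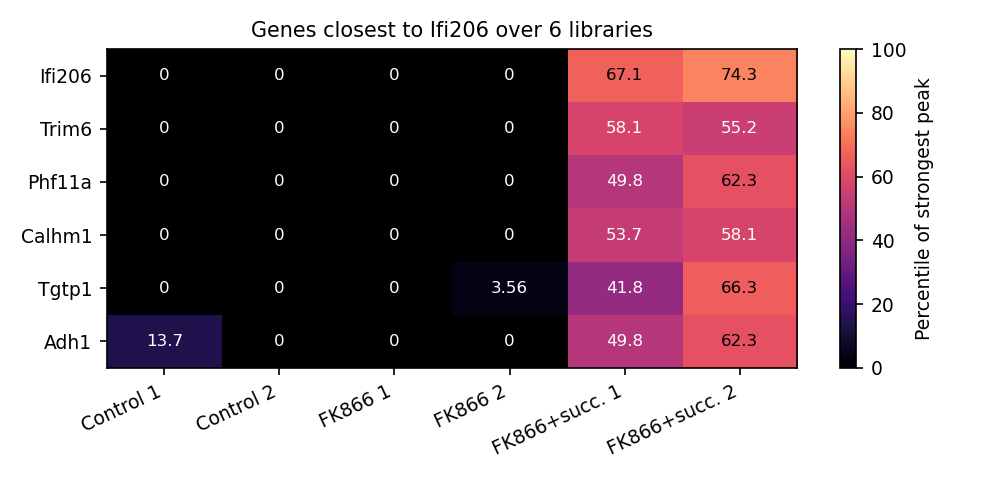
Percentile of the strongest peak (0 for no peak) in each of the 6 libraries for Ifi206 and the 5 genes with the smallest mean absolute difference from it. All 6 genes have peaks in both FK866 plus succinate libraries; Tgtp1 and Adh1 also have 1 weak peak each elsewhere.

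The partners of the cluster in DNA sensing were marked in nearly all libraries, and none passed the test. Of 25 DNA-sensing and inflammasome genes, 22 had a peak in every library, among them Cgas and Sting1, which make and sense the messenger cGAMP, and the kinase genes Tbk1 and Ikbke that act after them. The strongest peak of Cgas stood at percentiles 82.4 and 81.1 in Control, 78.4 and 76.2 in FK866, and 81.3 and 84.0 with succinate. limma tested 23 of the 25 and called 0 in any comparison. With succinate against FK866, 13 were wider and 10 narrower, with a median of 0.0623 percentage points beside -0.0145 over all genes; at an unadjusted p under 0.05 there was 1, Pycard. With FK866 against Control, 7 were wider and 16 narrower, with a median of -0.178 beside -0.108, and 6436 of all 15362 genes were wider. At an unadjusted p under 0.05 there was 1 gene of the list, beside 4.85% of all genes. With succinate against Control, 9 were wider and 14 narrower, with a median of -0.286 beside -0.132, and 6583 of all 15362 genes were wider. At that level there were 2 genes of the list, beside 9.28% of all genes.

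The genes of type I interferon signalling and response had peaks in all 6 libraries in 16 of 16 cases found among the 18 listed. They include the receptor genes Ifnar1 and Ifnar2 and the kinase genes Jak1 and Tyk2. limma called 0 of the 16 in any comparison. At an unadjusted p under 0.05 there were 2 in FK866 against Control, 4 in succinate against FK866 and 4 in succinate against Control, beside 4.85%, 8.64% and 9.28% of all genes. Those of FK866 against Control, Irf9 and Isg15, were both narrower, and those of succinate against FK866, Rsad2, Irf9, Ifnar1 and Irf8, were all wider. Against Control, Stat2, Rsad2 and Ifnar1 were wider with succinate and Isg15 was narrower, at 19.6% or more in both Control libraries and 16.2% or less in both succinate libraries. The median difference over the 16 was -0.0593, 0.176 and 0.87 percentage points in the 3 comparisons, beside -0.108, -0.0145 and -0.132 over all genes. In the same order 7, 9 and 10 of the 16 were wider, beside 6436, 7494 and 6583 of 15362 genes. Rsad2, an antiviral enzyme gene singled out after its values were seen, was covered at 4.98% and 3.53% in Control, 4.65% and 3.01% in FK866, and 8.37% and 8.84% with succinate. Both succinate libraries lay above the other 4.

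Several family genes are best known from myeloid cells, so myeloid markers are given beside them. Of 6 myeloid marker genes, 2 (Spi1 and Cd14) had peaks in every library, 3 (Lyz2, Csf1r and Itgam) in some, and Adgre1 in none. The mean percentile over the list was between 27.4 and 28.8 in Control, 21.1 and 29.0 in FK866, and 25.2 and 41.6 with succinate, where the first library was the low one. Other lists differed between groups as well. Over the 4 epithelial markers, of which 3 had peaks in every library, the mean percentile was between 55.1 and 55.3 in Control, 45.4 and 46.2 in FK866, and 42.9 and 47.2 with succinate. Of the 9 ILC2 markers, 3 were wider and 6 narrower with succinate than with FK866, beside 7494 of all 15362 genes tested that were wider. Their mean percentile went the other way. It was between 77.5 and 80.9 in Control, 76.4 and 77.6 in FK866, and 80.7 and 83.4 with succinate. The median change in percentile from FK866 to succinate was 5.16 over these markers and 2.39 over all genes. Of the 9, limma called 0, with Il13, Il5 and Gata3 at an unadjusted p under 0.05, beside 8.64% of all genes. The part of these markers in the results at Ifi206, Ifi209 and Ifi203 was not tested. A smaller share of marked cells and a lower level per cell cannot be told apart in such bulk libraries.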

How the data were processed

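The 6 deposited peak lists, 1 per library, have 10 columns in the narrowPeak layout. Per the submitters' processing notes, cutadapt 1.9 and Bowtie2 2.5.0 were used and the build was mm10. The authors called peaks in each library; which caller and settings they used is not stated in the labels. The deposited score was not used for tests; it is 10 times the −log10 p for at least 99.88% of each list. The deposited fold is a ratio to local background within 1 library, and the deposited −log10 p and −log10 q are likewise the authors' own values for each peak. The −log10 p was ranked within a list only. The adjusted p also served as a cutoff for peaks. Adjusted p values of single peaks, and fragments inferred from fold and p, are printed side by side across libraries. Such peak heights depend on the library, so these values are descriptions and were not tested between groups. Deposited summit offsets, of the kind other, gave summit positions.

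The background per library was inferred from the steps of the fold values, and summit fragments from fold and p under a Poisson distribution, which returned the p of all 45 cluster peaks to within 0.0001 on the −log10 scale. These are relative measures of depth. Genes were those of a RefSeq table for GRCm38.p6, without strand, exons or introns; strand and starts came from the RefSeq promoter table, which matched 8 of the 9 members. limma 3.58.1 in R 4.3.3 (lmFit, eBayes with trend, all 6 libraries in 1 fit) tested the percent of each gene's span plus 2 kb covered by peaks, for genes covered in at least 2 of 6 libraries, with Benjamini-Hochberg adjustment at 0.05; it was tested on simulated data. Of the 9 members, 5 passed this filter. A shared region needed 1 bp of overlap. Python 3.11.15, pandas 2.3.3, numpy 2.4.6, scipy 1.17.1 and biopython 1.88 were used. Replicate numbers were not used as a pairing in the reported fit, and the labels do not say whether they are one. Named genes were the members, other family genes of the cluster, its neighbours, the 5 genes most like Ifi206, and from each list the called genes and its first 4; other list genes named, such as Pycard, Irf9, Isg15, Rsad2, Il13 and Cd14, were chosen after their values were seen. The members and lists were chosen with earlier results of these data known. Alternatives were other peak sets, flanks and windows, quantile normalization, no filter, a replicate block and leaving out each library.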

Additional observations from a re-analysis of the deposited data

How the results depend on the processing

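The members called by limma numbered 0 in FK866 against Control under every alternative run. In both succinate comparisons the count was 1 in the reported analysis. It was 2 (Ifi206 and Ifi209) with peaks of adjusted p under 0.05 and with the higher-scoring 50% of each list. In those 2 settings Ifi209, like Ifi206, stood at 0 in all Control and FK866 libraries, so its call supports nothing beyond its values. The count was 0 without a flank, 0 in 4-kb windows around the lead site, and 0 for the percentile, an alternative added after seeing the data. With quantile normalization it was 0 against FK866 and 1 against Control. With the replicate block it was 0 in all 3 comparisons, and the differences in cluster coverage stayed at -0.18, 0.575 and 0.396. A correlation by replicate number, taken for each comparison over 15362 genes, was 0.00645, 0.0216 and -0.0585. The quantity correlated is not recorded, so these values do not say how alike the libraries themselves are. With 2 libraries per group these cannot show whether same-numbered libraries shared an animal or culture. Each fit that left out a library and still tested Ifi206 gave it a difference of 4.96. That value could not move there, since all Control and FK866 libraries stood at 0. The cause of the changes in the count was not tested.

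Regions that differed in presence ranged, leaving out each library, from 0 to 4 in FK866 against Control, from 2 to 5 in succinate against FK866 and from 3 to 5 in succinate against Control. The coverage differences with peaks of adjusted p under 0.05 were -0.0196 for FK866 against Control and 0.461 for succinate against FK866, and -0.0435 and 0.437 with the higher-scoring 50%. Over all genes limma called 11, 11 and 24 in the 3 comparisons as reported, 13, 19 and 49 with peaks of adjusted p under 0.05, 7, 22 and 35 with the higher-scoring 50%, 3, 19 and 27 without a flank, 13, 4 and 18 with 5 kb, 5, 8 and 22 with quantile normalization, 21, 9 and 34 without the filter, and 0, 0 and 0 in lead-site windows and with the block. Among single members, Aim2 and Mndal against FK866 and Ifi209 in FK866 against Control changed sign in 5, 1 and 1 of 13 alternatives.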

Other observations

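Some genes of the inflammasome list, chosen here after their values were seen, shared the unmarked state of Ifi204 and Ifi205. Il1b, which encodes a cytokine matured by caspase-1, and Nlrc4, a sensor of bacterial proteins, had no peak in any of the 6 libraries. Nlrp3, the sensor gene of another inflammasome, had peaks in all 6, at percentiles 60.8 and 43.9 in Control, 47.6 and 51.0 in FK866, and 54.7 and 55.2 with succinate. Its covered share was 7.75% and 8.60% in Control, 6.02% and 7.08% in FK866, and 6.49% and 3.12% with succinate. Control lay above both other groups, which overlapped. Il18, the other cytokine gene matured by caspase-1, had peaks in all 6 libraries at percentiles between 49.8 and 68.9.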
